A study of Homo sapiens with 6 samples.

Results

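SPRY2, SPRY4, DUSP6 and DUSP8 encode feedback inhibitors of mitogen-activated protein (MAP) kinase signalling, and their transcripts were examined in Hs578T cells given a small interfering RNA (siRNA) against CSRP2. The 4 genes were taken from 14884 genes with a named probe set, each by its gene symbol and, had there been several, by its brightest probe set on average; each had 1. They were chosen by their values in the comparison of these same groups, so their differences are described here without a test. Hs578T is an established line of human breast cancer cells with a mesenchymal character and no oestrogen receptor, and CSRP2 is a LIM domain protein that binds actin filaments. The tested cells were transfected with CSRP2 siRNA (siCSRP2, 3 arrays) and the control cells with a non-targeting siRNA (siControl, 3 arrays), both with a cationic lipid reagent. In both groups 150000 cells were plated per well, 100000 were moved to a new plate 24 h after transfection, and RNA was taken 48 h later for Affymetrix HuGene 2.0 arrays. All cells are of 1 line and grew in serum with insulin; how many siRNAs were used and with which sequence is not stated in the labels. Nor do the labels say that replicates were separate cultures, so p-values rest on the spread among arrays that may differ only technically.

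Growth factor receptors activate RAS, the RAF kinases, MEK and finally the kinases ERK1 and ERK2, and active ERK induces genes whose products switch the pathway down again. Sprouty proteins such as SPRY2 and SPRY4 act near the receptor and at RAF. Dual specificity phosphatases (DUSPs) of the MAP kinase phosphatase class remove phosphate from the kinases themselves: DUSP6 is a cytoplasmic phosphatase selective for ERK, whereas DUSP8 belongs to the group that acts mainly on the stress kinases JNK and p38.

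The promoter windows of the 4 genes are shown because 3 of the genes were higher in siCSRP2 and 1 was lower. Each line gives the 250 bases before the outermost start listed by RefSeq for that gene (build GRCh38.p14, minus strand, written 5′ to 3′ in the direction of the gene). Capitals mark matches to 5 motifs, chosen after the sequences had been read and searched on both strands. The motifs are the cAMP response element TGACGTCA, the AP-1 element TGANTCA, the extended ETS site CCGGAA and the EGR element GCGNGGGCG. The CArG box of serum response factor completes the 5.
SPRY2: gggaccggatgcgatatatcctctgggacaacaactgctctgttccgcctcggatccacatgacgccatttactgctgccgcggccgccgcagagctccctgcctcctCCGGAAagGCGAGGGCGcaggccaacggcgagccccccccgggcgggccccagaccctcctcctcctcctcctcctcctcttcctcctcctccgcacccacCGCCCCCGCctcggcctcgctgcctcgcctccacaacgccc
SPRY4: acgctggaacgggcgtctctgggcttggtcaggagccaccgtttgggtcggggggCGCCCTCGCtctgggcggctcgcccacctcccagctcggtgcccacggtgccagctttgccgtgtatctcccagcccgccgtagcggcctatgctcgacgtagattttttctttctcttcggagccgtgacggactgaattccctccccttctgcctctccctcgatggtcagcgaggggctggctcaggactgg
DUSP6: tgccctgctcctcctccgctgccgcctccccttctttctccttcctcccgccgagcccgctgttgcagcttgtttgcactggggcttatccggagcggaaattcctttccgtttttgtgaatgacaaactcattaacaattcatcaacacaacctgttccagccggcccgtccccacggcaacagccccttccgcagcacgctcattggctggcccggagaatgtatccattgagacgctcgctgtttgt
DUSP8: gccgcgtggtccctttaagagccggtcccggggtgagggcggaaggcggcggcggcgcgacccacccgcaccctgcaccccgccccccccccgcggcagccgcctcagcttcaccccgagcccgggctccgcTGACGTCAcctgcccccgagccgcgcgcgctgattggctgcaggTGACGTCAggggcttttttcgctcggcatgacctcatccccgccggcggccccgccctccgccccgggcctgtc
The windows lie at chr13:80341127-80341376 for SPRY2, chr5:142324248-142324497 for SPRY4, chr12:89352502-89352751 for DUSP6 and chr11:1572272-1572521 for DUSP8. In the DUSP8 window, TGACGTCA began 118 and 74 bases before the start. Of 35116 windows of the same length, 1.65% held this element at least once and 19 held it at least 2 times. The SPRY2 window held 1 extended ETS site (142 bases before the start) and 2 EGR elements (134 and 41 bases before it). The SPRY4 window held 1 EGR element (195 bases before its start). Extended ETS sites were present in 14.5% and EGR elements in 8.42% of all windows. No 2 of the marked matches overlapped. None of the 5 motifs, including the AP-1 element (6.57% of windows) and the CArG box (1.16%), was spelled out in the DUSP6 window. The shorter ETS core GGAA was not counted and occurs in all 4 windows. The GC content of the windows was 70.4% for SPRY2, 65.6% for SPRY4, 57.2% for DUSP6 and 76.8% for DUSP8, beside a median of 58.0% over all windows.

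Because DUSP8 carried the cAMP response element in 2 copies, other measured genes with that element were described in the same way. 293 other genes had it in at least 1 listed window; 3 of them rose and 24 fell (1.02% and 8.19%), with a median log2 difference of -0.05. Over all 10745 measured genes with a window, 84 rose and 791 fell (0.782% and 7.36%), with a median of -0.0014. The 6 other measured genes with at least 2 copies ranged from -0.67 to 0.25. Since DUSP8 was chosen by its values, its place beside them says nothing about the element, whose part was not tested.

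The arrays as a whole are described first. CSRP2 itself (probe set 16767837) measured 3.25, 3.76 and 4.26 on siCSRP2 arrays 1, 2 and 3, against 3.69, 4.01 and 4.35 on siControl arrays 1, 2 and 3. The log2 difference was -0.26 (SE 0.26, 95% interval -0.84 to 0.32; limma, adjusted p = 0.583, or 0.188 in a fit with the replicate as a block; exact permutation test, two-sided p = 0.5, where 0.1 is the smallest possible). CSRP2 was lower within each replicate number (-0.44, -0.24 and -0.09), which that permutation test does not use, but the groups overlapped and neither fit passed. The labels are therefore not settled by the targeted gene, and siCSRP2 here means the arrays labelled so. On the first principal component the siCSRP2 arrays lay at 14.01 to 30.7, siControl 1 and siControl 2 at -31.5 and -31.2, and siControl 3 between the groups at -2.05. Over all genes, 119 rose and 974 fell in limma at an adjusted p below 0.05, 0.800% and 6.54% of the genes tested. All 5 measured mesenchymal markers were brighter than the median gene. Their mean was 8.22 to 8.56 on siCSRP2 arrays and 8.95 to 9.19 on siControl arrays. VIM, FN1 and AXL fell, whereas CD44 (-0.32) and MSN (0.11) did not pass. The part of this shift of the mean in the values below was not tested. Luminal markers averaged 2.83 to 3.04 on siCSRP2 and 2.73 to 2.89 on siControl arrays, 3 of 8 being brighter than the median gene (GATA3, EPCAM and KRT8), and of 3 endothelial markers none was. Of 2 measured white blood cell markers 1 was, and they averaged 5.31 to 5.57 on siCSRP2 and 4.97 to 5.33 on siControl arrays. The bright marker was CD68 (8.24 in siCSRP2 and 7.60 in siControl), which did not pass, whereas CD14 averaged 2.64 in each group.

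SPRY2, which binds adaptor proteins of activated receptors and limits RAS and RAF activation, was higher in siCSRP2. It measured 6.58, 6.69 and 6.89 on siCSRP2 arrays 1 to 3, against 5.11, 5.32 and 6.52 on siControl arrays 1 to 3 (probe set 16780069, log2 values). All siCSRP2 arrays lay above all siControl arrays, but siControl 3 was only 0.066 below the lowest siCSRP2 array. Group means were 6.72 ± 0.16 for siCSRP2 and 5.65 ± 0.76 for siControl (SD, n = 3 each), a difference of 1.07 or 2.10-fold. Within a replicate number the difference was 1.47, 1.37 and 0.38.

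SPRY4, a paralogue with a similar inhibitory role, had the same arrangement of arrays. Its values were 5.31, 5.69 and 5.48 on siCSRP2 arrays 1 to 3, against 4.12, 4.56 and 5.21 on siControl arrays 1 to 3 (probe set 17001063). The groups did not overlap, and siControl 3 again lay nearest to siCSRP2, 0.098 below its lowest array. The means were 5.50 ± 0.19 for siCSRP2 and 4.63 ± 0.55 for siControl (SD, n = 3 each), which differ by 0.86 or 1.82-fold, with 1.19, 1.13 and 0.27 within replicate numbers 1, 2 and 3.

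DUSP8 was the gene of the 4 with the greatest difference. It measured 5.29, 6.61 and 6.23 on siCSRP2 arrays 1 to 3, against 4.0, 4.39 and 5.18 on siControl arrays 1 to 3 (probe set 16734271). The lowest siCSRP2 array, siCSRP2 1, stood only 0.11 above siControl 3, although both groups spread over more than 1 log2 unit. The means of 6.04 ± 0.68 for siCSRP2 and 4.52 ± 0.60 for siControl (SD, n = 3 each) differ by 1.52 or 2.86-fold, and the differences within a replicate number were 1.28, 2.22 and 1.05. RefSeq lists 3 pseudogenes of DUSP8 (DUSP8P1, DUSP8P2 and DUSP8P5), and whether their transcripts reach this probe set was not tested.

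DUSP6, the ERK-selective phosphatase, went the other way. It measured 5.25, 4.64 and 4.67 on siCSRP2 arrays 1 to 3, against 5.61, 5.51 and 5.74 on siControl arrays 1 to 3 (probe set 16768297). The highest siCSRP2 array (siCSRP2 1) was 0.26 below the lowest siControl array, and siControl 3 was here the highest control. The mean was 4.85 ± 0.34 in siCSRP2 and 5.62 ± 0.11 in siControl (SD, n = 3 each), a difference of -0.77, or 1.70-fold lower in siCSRP2. Within replicate numbers the differences were -0.36, -0.87 and -1.07. RefSeq also lists a read-through gene, POC1B-DUSP6, which this probe set was not shown to separate from DUSP6.

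**Figure D1:**
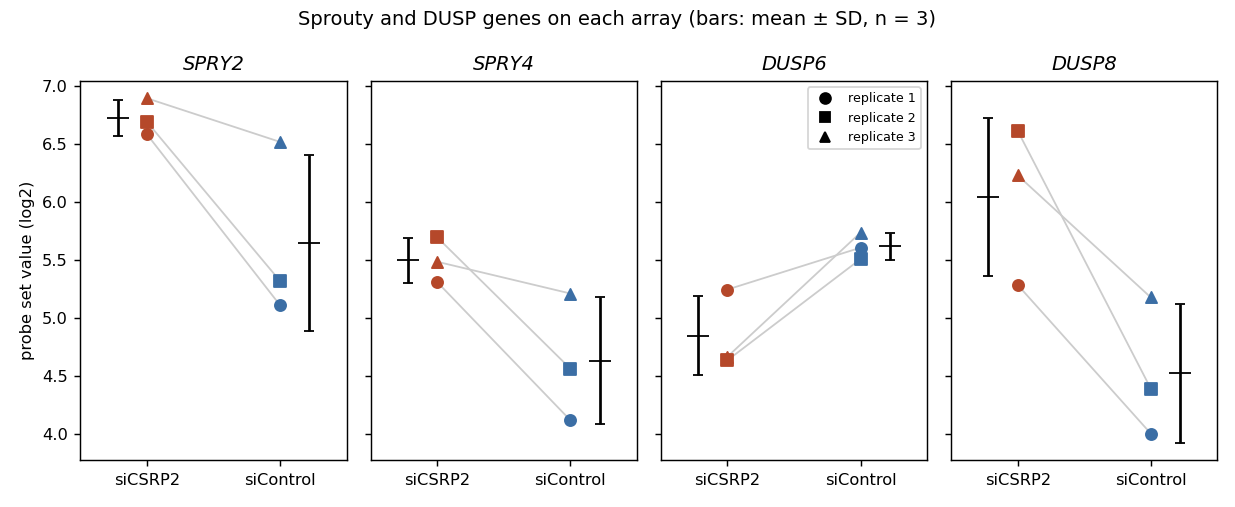
Log2 probe set values (vertical axis) of SPRY2, SPRY4, DUSP6 and DUSP8 on each siCSRP2 array (left, red) and siControl array (right, blue), with marker shape for the replicate number, grey lines joining equal numbers, and black bars for mean ± SD (n = 3). siControl 3 (blue triangle) sits just below the siCSRP2 arrays for SPRY2, SPRY4 and DUSP8, and at the top of the controls for DUSP6.

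For the 3 genes that were higher, the size of the difference varied with siControl 3. Counted from the mean of siControl 1 and siControl 2, siControl 3 stood 86.4% of the way to the siCSRP2 mean for SPRY2, 75.3% for SPRY4 and 53.1% for DUSP8. For DUSP6 it stood 0.18 above those controls, on the side away from siCSRP2. Without siControl 3 the differences were 1.51 for SPRY2, 1.15 for SPRY4 and 1.84 for DUSP8, and -0.71 for DUSP6; without siControl 1 they were 0.80, 0.61, 1.26 and -0.77. As a description of the choice, 3 of the 4 genes lay above the controls with no overlap and 1 below, as did 11.5% and 16.2% of all genes. The same 3 were higher and the same 1 lower in 3 of 3 pairs of equal replicate number, as were 23.2% and 26.6% of all genes. Nothing is read from these counts, since this contrast chose the genes.

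**Figure D2:**
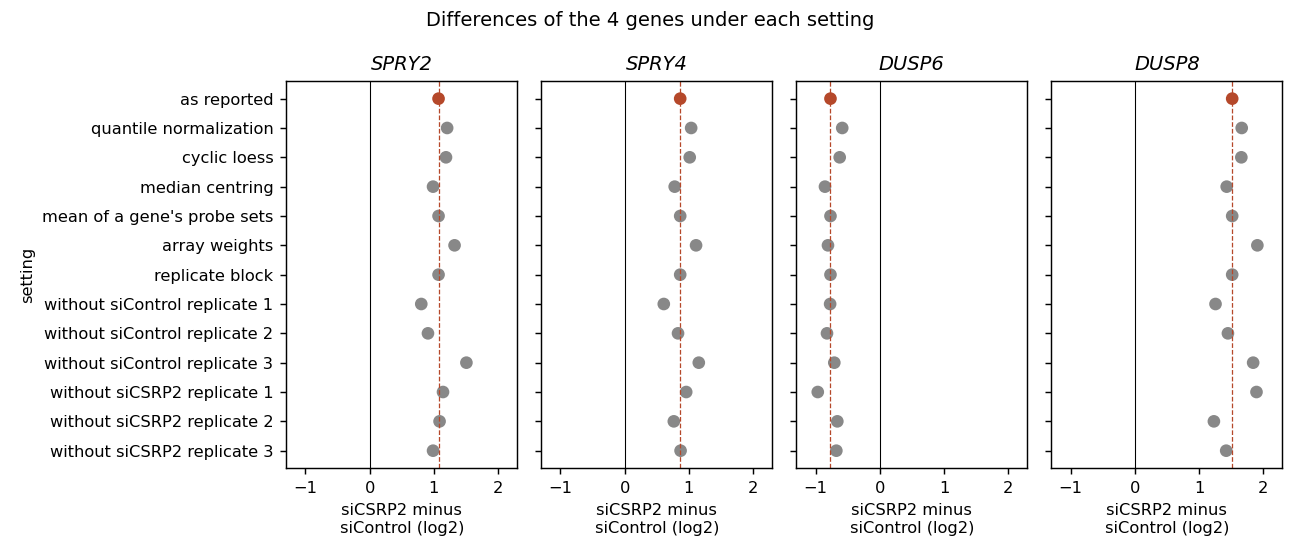
Difference of group means, siCSRP2 minus siControl on the log2 scale (horizontal axis), for each of the 4 genes under each processing setting (rows), with the reported value in red and dashed. No setting moved a difference across 0: SPRY2 ranged from 0.80 to 1.51, SPRY4 from 0.61 to 1.15, DUSP8 from 1.23 to 1.91 and DUSP6 from -0.97 to -0.58. Leaving out or weighting arrays could not do so, since the groups did not overlap.

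The array profiles of the 4 genes were compared after each gene was centred on its own mean, by the root mean square difference over the 6 arrays on the log2 scale. SPRY2 and SPRY4 differed by 0.23. Among 8035 other genes whose higher group mean was above the median of all genes, 24 were nearer to SPRY2 than SPRY4 was, and 64 were nearer to SPRY4 than SPRY2 was. DUSP8 lay 0.43 from SPRY2 and 0.44 from SPRY4, while DUSP6 lay 0.91 to 1.32 from the other 3 genes. The 6 points of each profile include the group difference itself.

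The genes nearest to SPRY2 were MXD1, an antagonist of MYC (0.12), the zinc finger gene RLF (0.13) and the inositol phosphate kinase IPMK (0.16). MXD1 averaged 6.70 ± 0.083 in siCSRP2 and 5.60 ± 0.60 in siControl, and its siControl 3 value of 6.29 also stood apart from 5.27 and 5.24 on siControl 1 and 2. Nearest to SPRY4 were the histone methyltransferase gene KMT2C (0.074), the cytokine IL32 (0.11) and NAV2 (0.11). KMT2C measured 6.51, 6.90 and 6.88 on siCSRP2 arrays, against 5.34, 5.84 and 6.38 on siControl arrays. DUSP6 had WDR36 (0.072), ARHGAP12 (0.079) and POPDC1 (0.090) as its nearest genes, with log2 differences of -0.70, -0.72 and -0.67. DUSP8 was less closely matched. The chemokine CCL3L1 (0.20), which has near-identical copies that this probe set may not separate, came first, then nocturnin, NOCT (0.21), and the interleukin receptor gene IL1RL1 (0.21).

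**Figure D3:**
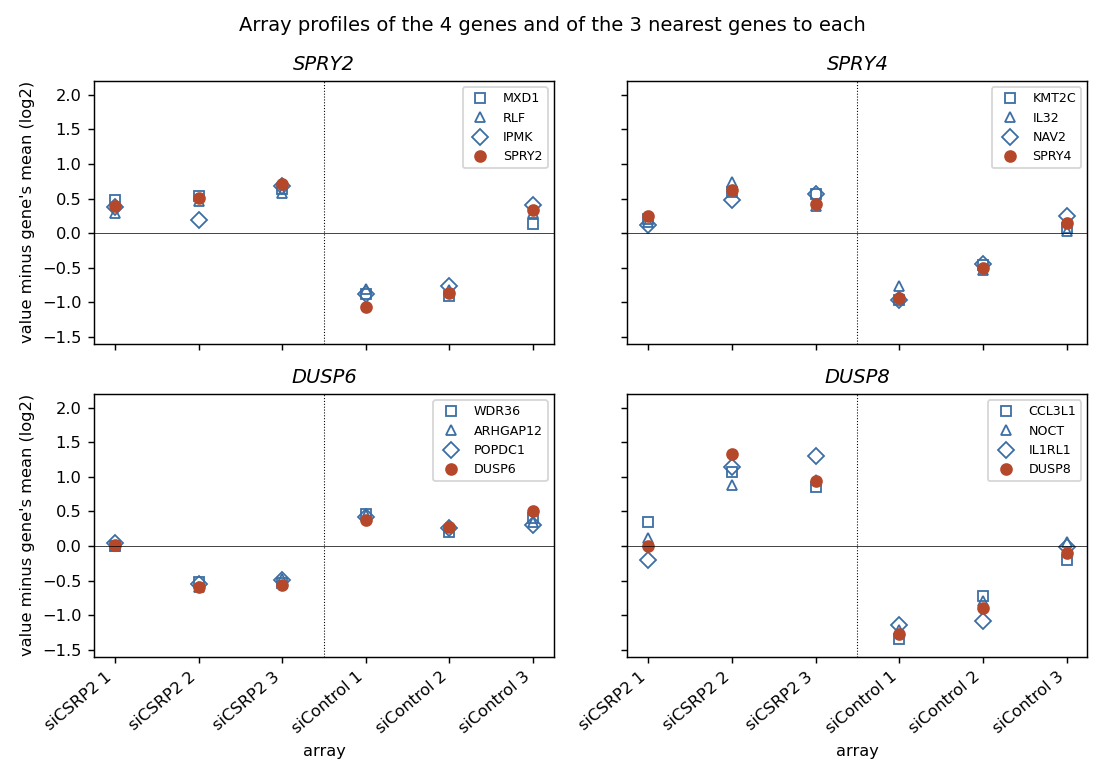
Log2 values minus each gene's own mean (vertical axis) on the 6 arrays (horizontal axis, siCSRP2 left of the dotted line, siControl right) for each of the 4 genes (red) and its 3 nearest genes (blue outlines). SPRY2, SPRY4, DUSP8 and their nearest genes are low on siControl 1 and 2 and higher on siControl 3. On siControl 3, RLF, IPMK, NAV2 and IL1RL1 lie above their siCSRP2 1 values. DUSP6 and its nearest genes are high on all 3 controls and near the mean on siCSRP2 1.

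The rest of the Sprouty family and of the MAP kinase phosphatases was then set beside the 4 genes. Of the other 5 Sprouty and SPRED genes only SPRY3 was measured here. It was dim and measured 2.43 ± 0.17 in siCSRP2 and 2.33 ± 0.10 in siControl (SD, n = 3 each), a difference of 0.10 that did not pass (SE 0.12, limma, adjusted p = 0.667).

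None of the other 8 MAP kinase phosphatases passed limma over all genes; at an unadjusted p below 0.05, 2 were higher and 3 lower, where 6.32% of all genes were higher and 17.4% lower. Their median difference was 0.06 beside 0.02 for all genes, and it was -0.03 after median centring and -0.0068 after cyclic loess. Without siControl 3, 3 of the 8 rose (DUSP1, DUSP5 and DUSP16), beside 427 of all 14884 genes. After median centring DUSP4 fell, as did 1471 of all 14884 genes. DUSP1, a nuclear phosphatase for p38, JNK and ERK, measured 8.56, 7.99 and 8.19 on siCSRP2 arrays 1 to 3, against 6.40, 6.90 and 8.68 on siControl arrays 1 to 3. siControl 3 was thus the highest of all 6 arrays, and the difference of 0.92 (SE 0.49) did not pass (adjusted p = 0.300). Without siControl 3 it was 1.60 and passed (adjusted p = 0.0012), and without siControl 1 it was 0.46. DUSP5, the nuclear ERK phosphatase, measured 5.51, 5.08 and 4.70 on siCSRP2 arrays 1 to 3, against 4.07, 4.03 and 4.94 on siControl arrays 1 to 3. Here too siControl 3 lay within the siCSRP2 range (0.75, SE 0.28, adjusted p = 0.14). DUSP5 had 2 probe sets, whose mean differed by 0.42, and without siControl 3 it rose (1.04, adjusted p = 0.00895).

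DUSP16, which like DUSP8 and DUSP10 acts mainly on JNK and p38, measured 4.12, 4.68 and 4.70 on siCSRP2 arrays 1 to 3, against 3.43, 3.65 and 4.22 on siControl arrays 1 to 3. It was higher within each replicate number (0.69, 1.03 and 0.47). The difference of 0.73 (SE 0.23) did not pass limma (adjusted p = 0.092). With the replicate block it did (adjusted p = 0.00898), the only 1 of these 8 genes to do so, where 2.67% of all genes rose. DUSP10, by contrast, was lower in each pair, at 5.57 ± 0.15 in siCSRP2 and 5.91 ± 0.17 in siControl, and did not pass (-0.34, SE 0.13, adjusted p = 0.157). Of these phosphatases acting mainly on JNK and p38, DUSP16 and DUSP8, the latter chosen by its values, were higher in each pair and DUSP10 lower. Over all genes 23.2% were higher in each pair and 26.6% lower.

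The phosphatases closest to DUSP6 in substrate were not uniform either. DUSP4, a nuclear phosphatase for ERK and JNK, measured 4.24, 4.02 and 3.88 on siCSRP2 arrays 1 to 3, against 4.38, 4.38 and 4.80 on siControl arrays 1 to 3. Its groups did not overlap and it was lower in each pair, but the difference of -0.47 (SE 0.15) did not pass (adjusted p = 0.102, and 0.0836 with the block). The cytoplasmic ERK phosphatase DUSP7 measured 3.72 ± 0.24 in siCSRP2 and 4.08 ± 0.18 in siControl (-0.36, adjusted p = 0.196). DUSP9, the third of the cytoplasmic ERK phosphatases, and the nuclear DUSP2 had differences of 0.06 each (adjusted p = 0.839 and 0.805), and both turned sign under some settings.

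The genes commonly used as transcript scores of MEK and ERK output include SPRY2, SPRY4 and DUSP6, and of the other 7 such genes 6 were measured. EPHA4, a receptor for ephrins, rose, where 0.800% of all genes did, and the other 5 did not pass. EPHA4 measured 4.59, 5.40 and 5.30 on siCSRP2 arrays 1 to 3, against 3.95, 4.04 and 4.16 on siControl arrays 1 to 3. Every siCSRP2 array was above every siControl array (1.05, SE 0.20, adjusted p = 0.0227), and the call was lost without siControl 1, siControl 2, siCSRP2 2 or siCSRP2 3 (adjusted p up to 0.105). Cyclin D1, CCND1, was lower in each pair at 5.77 ± 0.18 in siCSRP2 and 6.08 ± 0.068 in siControl (-0.32, adjusted p = 0.157). The ETS factors ETV4 (0.22, adjusted p = 0.468) and ETV5 (-0.22, adjusted p = 0.435) and the receptor EPHA2 (0.23, adjusted p = 0.417) differed by less. Together with DUSP4 (-0.47) the 6 genes had a median difference of -0.0043, which became -0.09 with median centring, 0.10 with cyclic loess and 0.11 with quantile normalization.

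**Figure D4:**
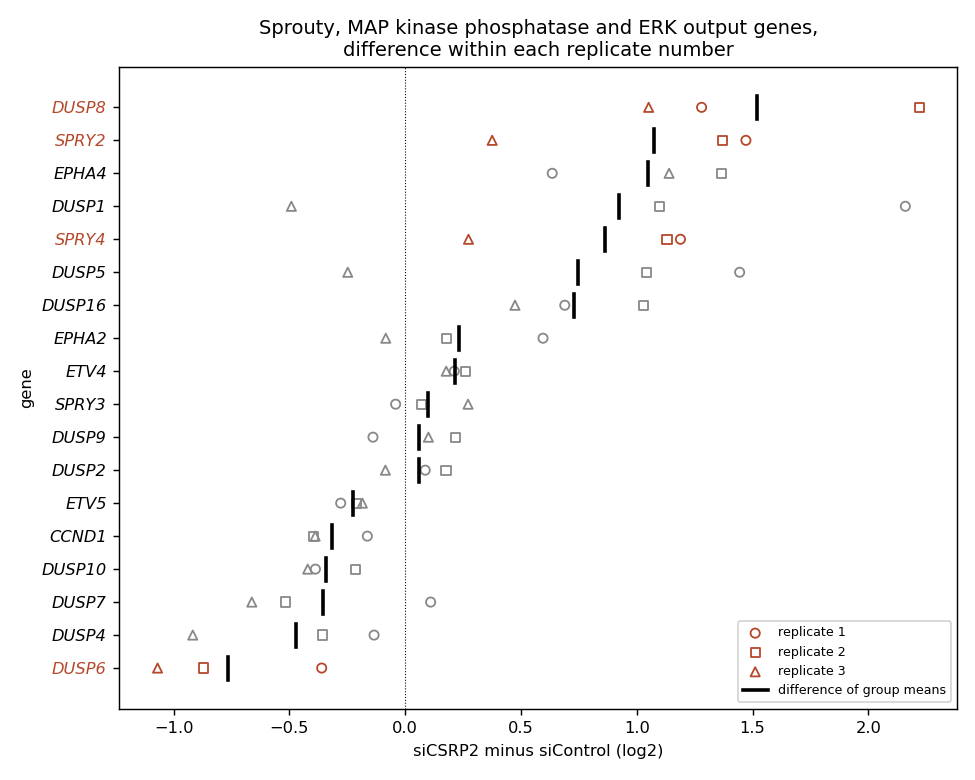
Difference siCSRP2 minus siControl on the log2 scale (horizontal axis) for each measured Sprouty gene, MAP kinase phosphatase and ERK output gene (rows), within replicate numbers 1 (circle), 2 (square) and 3 (triangle), with a black bar for the difference of group means. The triangle of replicate 3 is the lowest of the 3 for most genes drawn, the exceptions being SPRY3, DUSP9, EPHA4, CCND1 and ETV5; it lies at -0.49 for DUSP1 and -0.25 for DUSP5.

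Across the 11 lists around the pathway, 122 genes other than the 4 were measured, of which 1 rose, 10 fell and 111 did not pass (0.800% and 6.54% of all genes). With the replicate block 11 rose and 17 fell, beside 2.67% and 13.1% of all genes. Without siControl 3, 19 rose and 19 fell, beside 427 and 2193 of all 14884 genes. Without siControl 2 none rose and 3 fell, beside 5 and 86 of all genes. The largest fall was that of RRAS, a RAS-related GTPase, at 6.55, 6.77 and 6.45 on siCSRP2 arrays 1 to 3, against 8.29, 8.27 and 8.29 on siControl arrays 1 to 3. The SD of these controls was 0.0094 (n = 3), and RRAS passed in all 6 fits that left 1 array out (-1.69 or 3.22-fold, SE 0.12, adjusted p = 0.000854). It was the only 1 of 17 measured adaptor, RAS, RAF, MEK and ERK genes that passed. With the block RRAS2 (0.78, adjusted p = 0.00347) and the MEK1 gene MAP2K1 (0.75, adjusted p = 0.0208) also rose, and HRAS (-0.53, adjusted p = 0.03) and the ERK1 gene MAPK3 (-0.47, adjusted p = 0.0412) fell.

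Among 13 other measured regulators acting from receptor to ERK, 3 fell and none rose, beside 6.54% and 0.800% of all genes. At an unadjusted p below 0.05, 4 were lower and 1 higher, beside 17.4% and 6.32% of all genes. The 3 that fell were the pseudokinases TRIB2 and TRIB3, which are adaptors rather than pure inhibitors, and LRIG1. LRIG1 is a transmembrane inhibitor of the epidermal growth factor receptor. TRIB2 measured 4.53, 4.76 and 4.34 on siCSRP2 arrays 1 to 3, against 6.01, 6.22 and 5.62 on siControl arrays 1 to 3 (-1.40, SE 0.17, adjusted p = 0.00644). LRIG1 measured 4.40, 4.03 and 4.13 on siCSRP2 arrays 1 to 3, against 4.92, 5.04 and 5.05 on siControl arrays 1 to 3 (-0.82, SE 0.13, adjusted p = 0.0114). Neither gene's groups overlapped, with siControl 3 close to the other controls for LRIG1 and the lowest of them for TRIB2. TRIB3 fell by 0.58 (adjusted p = 0.0249), a call lost after quantile normalization and cyclic loess (adjusted p = 0.0913 and 0.0747) and held by 2 of the 6 fits that left 1 array out, against all 6 for TRIB2 and 4 for LRIG1 (lost without siControl 2 or siCSRP2 2). The mean of the 2 probe sets of TRIB2 differed by -0.90. With the block the RAF inhibitor PEBP1 fell too (-0.94, adjusted p = 0.0151). Without siControl 3, 3 of the 13 rose and 5 fell, beside 427 and 2193 of all 14884 genes.

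Of 13 measured receptors none passed limma (0 higher and 2 lower at an unadjusted p below 0.05, beside 6.32% and 17.4% of all genes), and the greatest difference was that of FGFRL1 (-0.42, adjusted p = 0.108). EGFR measured 6.53 ± 0.23 in siCSRP2 and 6.58 ± 0.29 in siControl. Of 16 ligand genes 1 fell in limma, beside 6.54% of all genes. It was NRG1, which binds ErbB receptors (3.82 ± 0.020 in siCSRP2 and 4.28 ± 0.062 in siControl, difference -0.46, adjusted p = 0.0313). This call was lost after quantile normalization (adjusted p = 0.106) and cyclic loess (adjusted p = 0.0965), and held in 1 of the 6 fits that left 1 array out, that without siControl 3. Of 13 atypical DUSP genes, which lack the kinase interaction motif, DUSP18 fell in limma (-0.72, SE 0.10, adjusted p = 0.00882). The block added DUSP12 (-0.43, adjusted p = 0.0338). Over all genes 6.54% fell, and 13.1% with the block. The call of DUSP18 was lost without siControl 1 (adjusted p = 0.0512) or siControl 2 (adjusted p = 0.059).

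The list of JNK and p38 kinases with their upstream kinases and kinase substrates had 12 measured genes, of which 2 fell in limma. They were MAP3K5, an upstream kinase (-0.93, adjusted p = 0.034), and the p38 substrate MAPKAPK3 (-0.68, adjusted p = 0.0219). Over all genes 6.54% fell. At an unadjusted p below 0.05, 1 of the 12 was higher and 5 lower, beside 6.32% and 17.4% of all genes. None of the JNK and p38 genes themselves (MAPK9, MAPK10, MAPK11, MAPK12 and MAPK13) passed. With the block 3 further genes fell, the upstream kinase MAP2K6 (-0.82), the JNK gene MAPK9 (-0.50) and the p38 gene MAPK12 (-0.49). Over all genes 13.1% fell with the block. Both calls without the block were lost without siControl 1, siControl 2, siCSRP2 2 or siCSRP2 3, and that of MAP3K5 also after quantile normalization (adjusted p = 0.0542) and cyclic loess (adjusted p = 0.0528).

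Of 8 ETS factors and repressors of their targets 2 fell and none rose, beside 6.54% and 0.800% of all genes. At an unadjusted p below 0.05, 1 was higher and 2 lower, beside 6.32% and 17.4% of all genes. ETV6, a repressor, measured 3.70, 3.50 and 3.35 on siCSRP2 arrays 1 to 3, against 4.77, 4.89 and 4.57 on siControl arrays 1 to 3 (-1.22, SE 0.13, adjusted p = 0.00377), and the groups did not overlap. The activator ETV1, of the same subgroup as ETV4 and ETV5, fell by 0.74 (adjusted p = 0.028), a call lost after quantile normalization (adjusted p = 0.0635) and cyclic loess (adjusted p = 0.0578) and without siControl 1, siControl 2, siCSRP2 2 or siCSRP2 3. ETV3, also a repressor, rose with the block (0.71, adjusted p = 0.0209).

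The list of early response genes, mostly transcription factors, which ERK and other kinases induce, had 16 measured genes, and none passed limma. At an unadjusted p below 0.05, 6 were higher and none lower (6.32% and 17.4% of all genes), and 15 of the 16 differences were above 0, beside 7898 of all 14884 genes. The median was 0.34 (0.02 for all genes), and it was 0.20 without siControl 1 and 0.43 without siControl 3. Without siControl 3, 6 of the 16 rose, beside 427 of all 14884 genes. KLF4 measured 6.22, 6.95 and 6.62 on siCSRP2 arrays 1 to 3, against 5.10, 5.39 and 6.13 on siControl arrays 1 to 3 (1.06, SE 0.27, adjusted p = 0.0514). With the block 6 genes rose, KLF4, IER3, ATF3, JUN, JUNB and FOSB (2.67% of all genes rose), by 0.42 to 1.06. Of these, IER3 had 11 probe sets and FOSB 2, each gene represented by its brightest. As for SPRY2 and SPRY4, siControl 3 stood high: the list's median, taken against the siControl mean, was 0.34, 0.50 and 0.24 for siCSRP2 1, 2 and 3, against -0.35, -0.08 and 0.30 for siControl 1, 2 and 3.

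**Figure D5:**
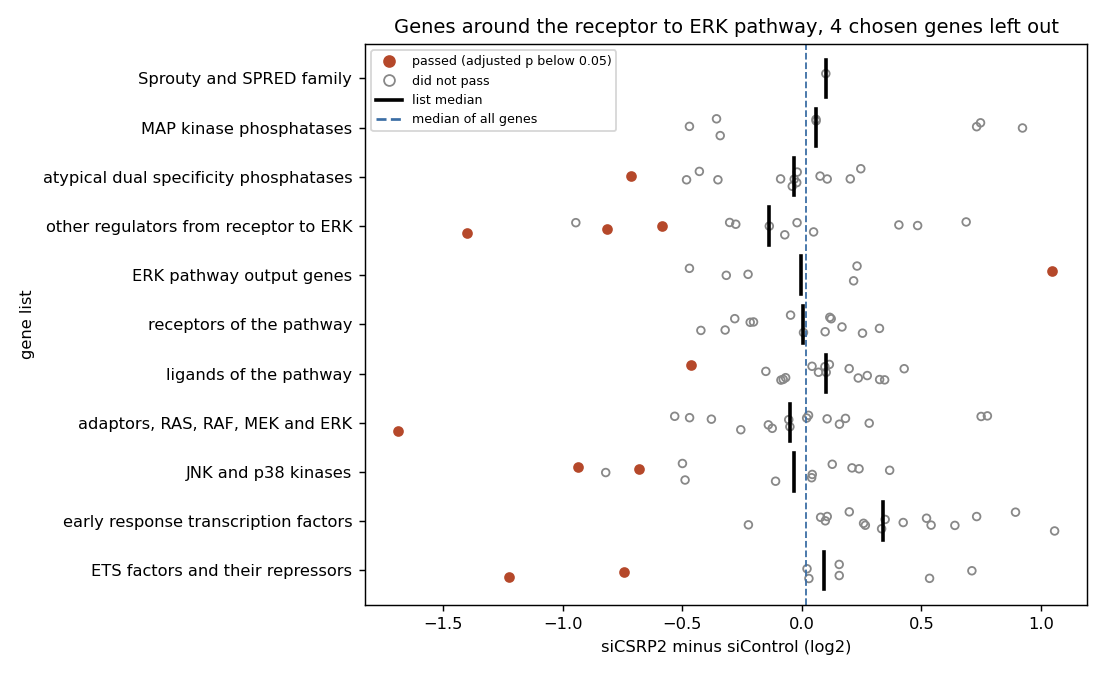
Difference siCSRP2 minus siControl on the log2 scale (horizontal axis) of each measured gene in 11 lists (rows), the 4 chosen genes left out; filled red points passed limma at an adjusted p below 0.05, black bars are list medians and the dashed line is the median of all genes. The early response list has its median at 0.34 with no gene passing, and the 10 genes that fell are spread over 6 lists.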

How the data were processed

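Total RNA of 6 Hs578T samples, 3 siCSRP2 and 3 siControl, was measured on Affymetrix HuGene 2.0 arrays. The table the authors deposited holds a value for each probe set on each array, taken as log2 from the range (1.26 to 13.4). The submitters' processing notes name Partek without a role. Background correction, summarisation, normalization and build: not given in the sources used here. Quartiles were unequal among the arrays, no detection calls were used, and precision is limited by how few arrays there are.

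Of 53617 probe sets, 16098 carried a single gene symbol in the platform annotation and 37519 no gene. Symbols were updated by gene ID through RefSeq (16098 matched). Each of 14884 genes was represented by its brightest probe set, unfiltered. Groups were fitted with limma 3.58.1 (R 4.3.3; lmFit, eBayes, group as the only term), two-sided, and p was adjusted over all genes by Benjamini-Hochberg, with 0.05 as the threshold. The fit was tested on simulated data.

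The 4 genes, the 11 lists and the tests were chosen with earlier results of these data known. Named are the 4 genes, CSRP2, all measured Sprouty, MAP kinase phosphatase and ERK output genes, up to 4 genes past the threshold and the largest difference in each other list, and the 3 nearest profiles of each of the 4 genes. Genes that passed only with the replicate block, the markers named, EGFR and the motifs were chosen after values or sequences were seen. Equal replicate numbers were taken to pair arrays. This is an assumption, since the labels name no plate or day. For equal numbers, deviations from group means correlated across genes at 0.30, 0.19 and 0.32, each above 0.1. Unequal numbers were not compared, so these values do not show that equal numbers belong together. Every fit with the replicate block and every difference within a pair rests on this assumption. Alternatives were other scalings, filters on dim genes, the mean of a gene's probe sets, array weights, the replicate block and leaving out each array.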

Additional observations from a re-analysis of the deposited data

How the results depend on the processing

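SPRY2, SPRY4, DUSP6 and DUSP8 kept their direction under all 12 alternatives tried for each, and every value moved by less than 1 SD between replicates. The groups of these genes did not overlap, so leaving out or weighting arrays could not reverse a direction. The replicate block and the mean of a gene's probe sets could not change these differences at all. Only the other scalings could have turned a sign. Outside the fits with an array left out, SPRY2 ranged from 0.99 to 1.32, SPRY4 from 0.78 to 1.11, DUSP8 from 1.43 to 1.91 and DUSP6 from -0.85 to -0.58. Counts of genes moved far more, and the cause was not tested. Over all genes, rises numbered 210 after quantile normalization, 197 after cyclic loess, 597 with array weights and 398 with the replicate block. They numbered 135 without the dimmest 25% and 149 without the dimmest 50%. Falls numbered 666 after quantile normalization, 687 after cyclic loess, 1471 after median centring, 2327 with array weights and 1950 with the replicate block. With 1 array left out, rises ranged from 5 (without siControl 2) to 427 (without siControl 3) and falls from 86 to 2193 in the same fits. The share of falls among calls was 94.5% with median centring, 77.7% with cyclic loess and 76.0% with quantile normalization, against 89.1% as reported. Of the 122 pathway genes, 4 rose and 6 fell after quantile normalization or cyclic loess, 3 rose without the dimmest 25% of genes and 4 without the dimmest 50%, 19 rose and 21 fell with array weights, and 11 rose and 17 fell with the replicate block. With 1 array left out they gave 0 to 19 rises and 3 to 19 falls. DUSP2 turned to -0.027 with median centring, and DUSP9 to -0.026 with median centring, -0.019 with cyclic loess and -0.00093 with quantile normalization; with 1 array left out they ranged from -0.0027 to 0.16 and from -0.052 to 0.19. The replicate block left CSRP2 at -0.26. The loss of a call with 1 array left out follows in part from the smaller number of arrays. No background level marks which genes are too dim to measure, and folds of dim genes may be too small.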
